A study of Mus musculus with 12 samples.

Results

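The genes described here were 34 receptor genes for glutamate and GABA, the main excitatory and inhibitory transmitters of the brain. The rule picks them by gene symbol and uses no measured value, although the list was drawn up with earlier results of these data known, and they made up 34 of the 55335 genes listed in the data. The list held 4 AMPA receptor genes (Gria1, Gria2, Gria3 and Gria4), 7 NMDA receptor genes (Grin1, Grin2a, Grin2b, Grin2c, Grin2d, Grin3a and Grin3b), 6 kainate and delta receptor genes (Grik1, Grik2, Grik3, Grik4, Grik5 and Grid1), 6 metabotropic glutamate receptor genes (Grm2, Grm3, Grm4, Grm5, Grm7 and Grm8), 9 GABA-A receptor genes (Gabra2, Gabra3, Gabra4, Gabra5, Gabrb1, Gabrb2, Gabrg1, Gabrg3 and Gabrd) and 2 GABA-B receptor genes (Gabbr1 and Gabbr2). The remaining receptor subunits were not analysed here.

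Nuclei of newborn mouse forebrain (postnatal day 1, P1) were sequenced for RNA by combinatorial barcoding, in 8 wild-type (WT) libraries from 5 males and 3 females and 4 heterozygous (Het) libraries from 3 males and 1 female, 1 animal in each library. The Het animals carried a germline frameshift allele of Myt1l (S710fsX), which encodes a zinc finger transcription factor found in neurons, and the WT animals were of the same line without it. The labels name the tissue as forebrain, whereas the study's methods also name the prefrontal cortex for this age, and which of these was taken is uncertain. Libraries are named by genotype, sex and label number, so that Het F1 is the only female Het library.

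Glutamate receptors of the AMPA, NMDA and kainate types are ion channels assembled from several subunits, whereas metabotropic receptors act through G proteins. The subunit set fixes how a channel behaves, and several subunits are known to be exchanged during early postnatal life, with GluN2B (Grin2b) used in the newborn brain before GluN2A (Grin2a) gains ground. GABA-A receptors are chloride channels, GABA-B receptors are coupled to G proteins, and immature neurons can respond to GABA before inhibitory synapses have matured.

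The kept nuclei numbered 96379 (56417 WT and 39962 Het), with a median of 1927 UMIs (unique molecular identifiers, each standing for 1 captured RNA) and between 10124152 and 25187498 UMIs per library, and 0 barcodes were shared between libraries. Levels are given in CPM, the summed UMIs of a gene scaled to a fixed total for a class in a library. Nuclei were clustered without the receptor genes and clusters were named from marker genes. Excitatory neurons are abbreviated ExN and inhibitory neurons InhN. MGE, CGE and LGE are the medial, caudal and lateral ganglionic eminences, the birthplaces of inhibitory neurons, and D1 and D2 striatal-like nuclei carried markers of the direct and indirect pathway. The classes other ExN (27710 nuclei) and other InhN (3150 nuclei) carried the general markers of their kind but no layer or lineage name. Other ExN joined 12 clusters, some of which matched a layer class just under the naming score of 0.5 (deep-layer 0.41, upper-layer 0.44, L6b/subplate 0.49). It also held a cluster of 2180 nuclei and another of 752 nuclei with Eomes among their top genes. These scored 1.18 and 0.99 for intermediate progenitors and lacked that name only by other naming rules. Other ExN is thus a mixture that includes progenitor-like nuclei. Deep-layer ExN-like nuclei were 2 clusters, both with Hs3st4, Tle4 and Syt6 among their top genes. They need not stand for all deep-layer neurons. In total 19 classes were compared, and the 12 libraries of both genotypes were used to describe them. Nuclei of all libraries were pooled during barcoding, and free RNA gives UMIs in nuclei that do not express a gene. Over the 30 members at 10 CPM or more in all nuclei, the median level relative to all nuclei was 18.5% in fibroblast-like nuclei, 22.5% in endothelial-like nuclei and 52.2% in microglia-like nuclei, which had median depths of 1534, 1803 and 1234 UMIs. Levels of neuronal members near those fractions were therefore read as background. This reading is cautious, since some members fell far below those fractions in ExN-like classes. In upper-layer ExN-like nuclei Grin3a was at 9.39 CPM and Grik3 at 9.44 CPM, against 166 and 162 CPM over all nuclei. A level said below not to be told from free RNA may thus still hold RNA of the class itself. The source of the UMIs in fibroblast-like, endothelial-like and microglia-like nuclei was not tested. Median doublet scores (share of simulated doublets among neighbours) were 0.36 to 0.54 in the fibroblast-like, endothelial-like and microglia-like clusters. They were 0.08 to 0.14 in upper-layer and deep-layer ExN-like clusters. Remaining doublets with neurons were not told apart from free RNA, and free RNA stands below for either. Over all nuclei, the targeted gene Myt1l averaged 1425 ± 109 CPM in the 8 WT libraries and 1572 ± 53.0 CPM in the 4 Het libraries (SD), and was not called (log2 difference 0.11, adjusted p = 0.546, edgeR). Counts over the gene do not separate the frameshift transcript from the normal one, so this value did not check the genotype.

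Of the members, 30 averaged 10 CPM or more over all nuclei and 4 averaged less. These 4 are short genes of 6.48 to 18.1 kb. Grin3b, an NMDA subunit, had 74 UMIs in all kept nuclei (0.344 ± 0.179 CPM, SD, n = 12). Gabrd, the delta subunit of extrasynaptic GABA-A receptors, had 282 UMIs (1.29 ± 0.502 CPM), and Grin2c, an NMDA subunit known from the cerebellum, had 362 UMIs (1.72 ± 0.735 CPM). Grm2, a presynaptic metabotropic receptor, was at 7.03 ± 1.66 CPM. Per kb of gene span, Grin3b (0.0531 CPM per kb), Grin2c (0.0950) and Gabrd (0.0985) were still the lowest of the 34 members, whereas Grm2 (0.541) was the 24th.

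Long genes can yield more UMIs from nuclei, because unspliced RNA is captured along the gene, so genes were compared with each other only per kb of gene span. Whether UMIs scaled with gene span in these data was not tested, and the order of the genes rests on this division. The members spanned 6.48 to 922 kb. Per kb, Gria2, which encodes the AMPA subunit that limits calcium entry, led all members with 14.3 ± 1.02 CPM per kb over all nuclei (SD, n = 12). Grm5 followed with 3.64 ± 0.268 CPM per kb, and Grin1, the obligatory NMDA subunit, was the third with 3.27 ± 0.230 CPM per kb although it was the 25th of the 34 members by CPM alone. Grin2b at 3.18 CPM per kb and Gabbr1 at 3.17 CPM per kb did not differ from Grin1 beyond the spread between libraries. The order across the classes for a given gene does not depend on its length and is given in CPM below.

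**Figure D1:**
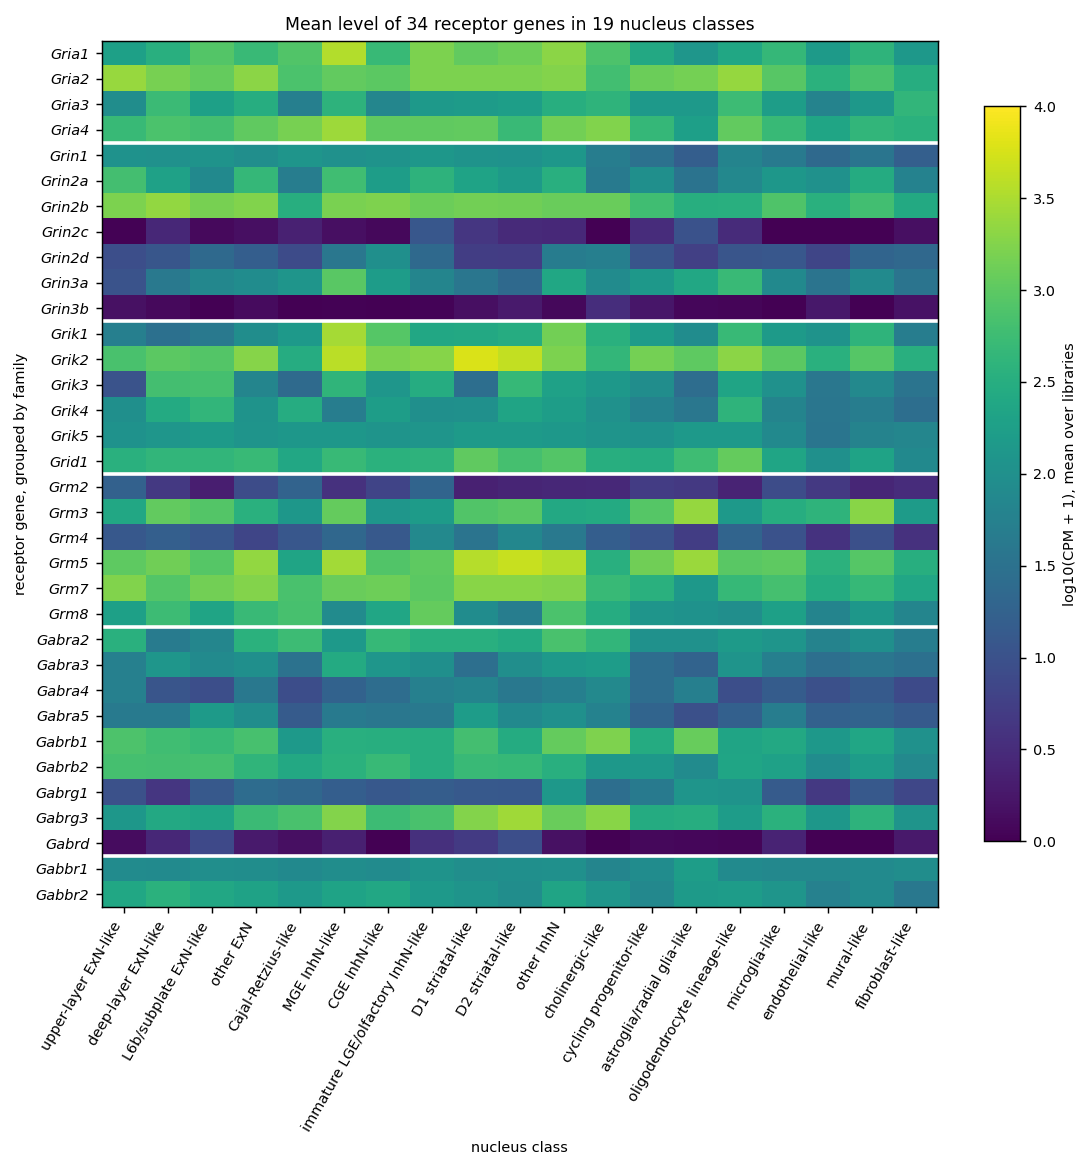
Mean level of each of the 34 receptor genes (rows, grouped by family with white lines between families) in each of 19 nucleus classes (columns), colored by log10(CPM + 1) averaged over libraries with at least 10 nuclei of the class. Colors are to be read along a row, since genes differ in length. The row of Grik2 is brightest in D1 striatal-like nuclei (5925 CPM), that of Grm5 in D2 striatal-like nuclei (4624 CPM), and the rows of Grin2c, Grin3b and Gabrd are dark throughout.

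Of the 34 members, 10 had a highest class that lay above the second class in every library holding both, and 4 of these 10 were highest in MGE InhN-like nuclei. These 4 were Gria1, Gria4, Grin3a and Grik1. The other 6 were Grin2b and Gabbr2 in deep-layer ExN-like nuclei, Grm5 in D2 striatal-like nuclei, Gabra2 in other InhN nuclei, Gabrb1 in cholinergic-like nuclei and Gabbr1 in astroglia/radial glia-like nuclei. The comparisons between classes are descriptions without a test, since the classes were cut from the same libraries. For every member, at least 16 of the 18 steps between neighbouring classes had library ranges that overlapped, so most neighbours in the order did not differ beyond their spread.

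Among the AMPA receptor genes, Gria1 and Gria4 had their highest levels in MGE InhN-like nuclei. Gria1 (ENSMUSG00000020524.16, chromosome 11, 57011387 to 57330244, plus strand, GRCm38) ranged there from 3079 to 3839 CPM with a median of 3538 CPM over 12 libraries. The second class, other InhN, ranged from 839 to 2508 CPM with a median of 2025 CPM, below every MGE InhN-like value. In upper-layer ExN-like nuclei Gria1 was at 187 ± 32.9 CPM (SD, n = 12), under the 457 CPM of microglia-like nuclei and close to the 134 CPM of fibroblast-like nuclei, and could not be told from background. Gria4 (ENSMUSG00000025892.16, chromosome 9, 4417896 to 4796234, minus strand) was at 2214 to 2757 CPM in MGE InhN-like nuclei with a median of 2588 CPM. It stood above cholinergic-like nuclei (1121 to 2132 CPM) in 7 of 7 libraries with both. Cajal-Retzius-like nuclei, early neurons of the outermost cortical layer, held Gria4 at 1498 ± 302 CPM.

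Gria2 (chromosome 3, 80681450 to 80802835, minus strand) had the opposite leaning, with its highest mean in upper-layer ExN-like nuclei (2437 ± 359 CPM, SD, n = 12). Oligodendrocyte lineage-like nuclei followed at 2294 ± 136 CPM and the ranges overlapped, so these 2 classes did not differ beyond their spread. Both were far above endothelial-like (356 CPM) and microglia-like nuclei (929 CPM). Gria3 on the X chromosome was at 560 ± 62.4 CPM in oligodendrocyte lineage-like and 540 ± 40.5 CPM in deep-layer ExN-like nuclei, but at 91.1 ± 16.5 CPM in upper-layer ExN-like nuclei. In fibroblast-like nuclei, where most members were low, Gria3 was at 431 ± 57.1 CPM, higher than in all nuclei.

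The balance of Gria1 to Gria2 set MGE InhN-like nuclei apart. Per kb of gene span, the ratio was 1.24 in MGE InhN-like nuclei, where it ranged from 1.02 to 1.41 over 12 libraries. In upper-layer ExN-like nuclei the ratio was 0.0300 and in deep-layer ExN-like nuclei 0.0820, where Gria1 (187 and 331 CPM) was below its microglia-like level of 457 CPM, so these ratios could not be told from free RNA. Striatal-like nuclei were at 0.262 for D1 and 0.318 for D2, with overlapping ranges, and L6b/subplate ExN-like nuclei lay level with them at 0.289. CGE InhN-like nuclei, the other interneuron class, had a ratio of 0.192, below the lowest MGE InhN-like library in 12 of 12 libraries. Gria1 there (508 CPM in WT and 482 CPM in Het) was close to its microglia-like level, and the microglia-like ratio was 0.185. The CGE InhN-like ratio could therefore not be told from free RNA either. A ratio at the level of transcripts from nuclei does not give the ratio of the proteins in a receptor.

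**Figure D2:**
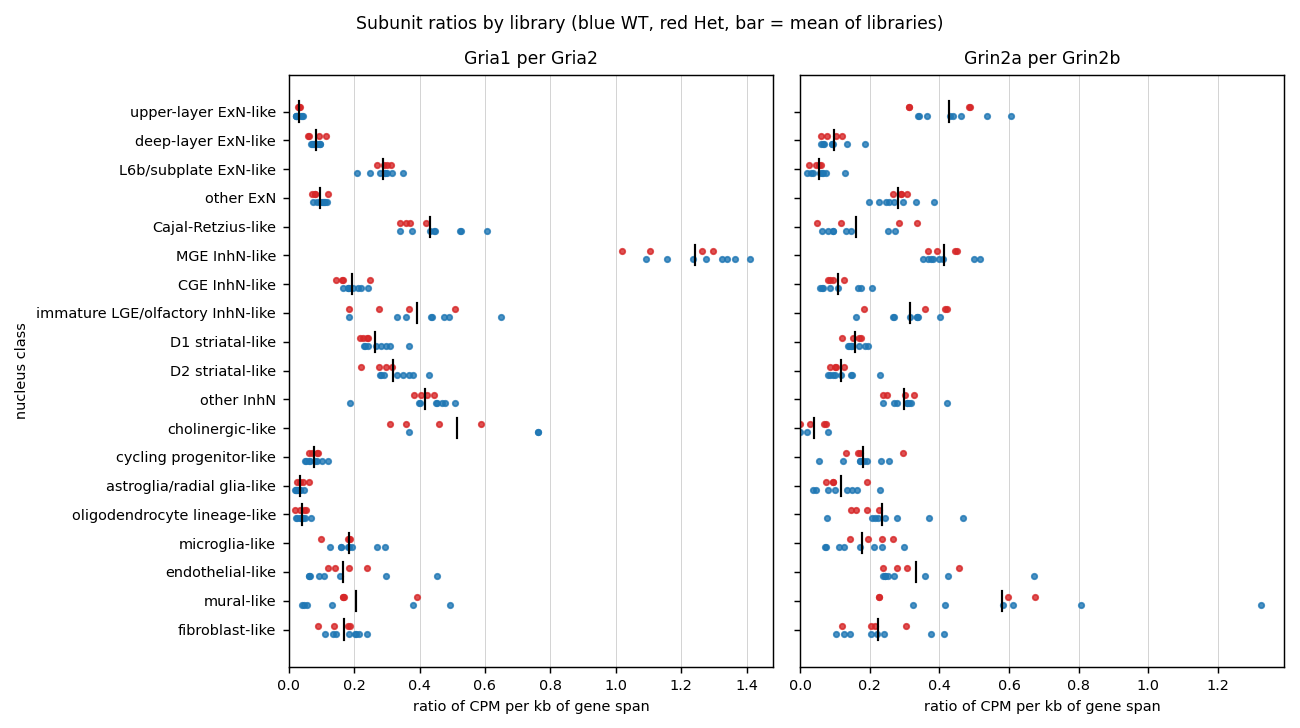
Ratio of Gria1 to Gria2 (left) and of Grin2a to Grin2b (right) in each nucleus class (vertical axis), with each level in CPM per kb of gene span. Points are libraries (blue WT, red Het) and bars are means. The Gria1 per Gria2 ratio of MGE InhN-like nuclei (1.02 to 1.41) stands apart from all other classes, and the Grin2a per Grin2b ratio stays below 1 in every neuronal class.

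Among the NMDA receptor genes, Grin2b exceeded Grin2a in each neuronal class at this age. Grin2b (ENSMUSG00000030209.14, chromosome 6, 135713233 to 136173511, minus strand) was highest in deep-layer ExN-like nuclei, from 2029.9 to 2358 CPM with a median of 2194 CPM. Other ExN nuclei followed at 1681 to 1865 CPM without overlap. Cajal-Retzius-like nuclei were the low neuronal class with 322 ± 70.5 CPM, level with astroglia/radial glia-like nuclei (318 ± 61.7 CPM) and under the 781 CPM of microglia-like nuclei.

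Grin2a was less uniform. It was at 632 ± 139 CPM in upper-layer ExN-like and 595 ± 89.8 CPM in MGE InhN-like nuclei, ranges that overlapped, and at 195 ± 68.8 CPM in deep-layer and 78.4 ± 40.4 CPM in L6b/subplate ExN-like nuclei. Per kb, the Grin2a to Grin2b ratio was therefore 0.426 in upper-layer ExN-like and 0.413 in MGE InhN-like nuclei, but 0.0960 in deep-layer and 0.0550 in L6b/subplate ExN-like nuclei. As background, L6b/subplate and deep-layer neurons are born before upper-layer neurons. In mural-like nuclei the ratio had a wide spread (0.579, from few UMIs), and in D1 and D2 striatal-like nuclei it was 0.157 and 0.118. Grin2a in L6b/subplate and deep-layer ExN-like and in D1 and D2 striatal-like nuclei (209 and 149 CPM), against 354 CPM over all nuclei, was near or below the microglia-like fraction, so these 4 low ratios could not be told from free RNA.

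Grin3a encodes an NMDA subunit known to lower calcium entry. Grin3a (ENSMUSG00000039579.15, chromosome 4, 49661611 to 49845744, minus strand) ranged from 648 to 1191 CPM in MGE InhN-like nuclei with a median of 961 CPM. Oligodendrocyte lineage-like nuclei ranged from 354 to 603 CPM and were below MGE InhN-like nuclei in all 12 libraries. CGE InhN-like nuclei were at 163 ± 55.9 CPM and upper-layer ExN-like nuclei at 9.39 ± 3.08 CPM, the lowest class. Grin2d showed the other arrangement of the interneuron classes, with 96.4 ± 20.6 CPM in CGE InhN-like nuclei against 37.2 ± 10.3 CPM in MGE InhN-like nuclei, and the ranges did not overlap. Kdelr1 on the opposite strand overlaps the Grin2d gene, and Ppp3r2 lies within Grin3a on its strand, so part of their counts could belong to the overlapping gene. Grin1 varied little among neuronal classes, from 94.0 CPM in other ExN to 130.3 CPM in immature LGE/olfactory InhN-like nuclei when cholinergic-like nuclei (49.4 CPM) are left aside, against 14.7 CPM in astroglia/radial glia-like and 15.0 CPM in fibroblast-like nuclei.

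Of the kainate receptor genes, Grik1 and Grik2 were highest in inhibitory classes. Grik1 (ENSMUSG00000022935.16, chromosome 16, 87895900 to 88290265, minus strand) was at 2419.8 to 3376 CPM in MGE InhN-like nuclei with a median of 2895 CPM, above other InhN nuclei (1112 to 1722 CPM) in every library. CGE InhN-like nuclei were at 890 ± 173 CPM, and deep-layer ExN-like nuclei at 29.2 ± 17.8 CPM. Grik2 (chromosome 10, 49094833 to 49788766, minus strand) was at 5925 ± 714 CPM in D1 striatal-like nuclei, from 4088 to 6975 CPM. D2 striatal-like nuclei followed at 4240 ± 509 CPM and were lower in 11 of 12 libraries, although the ranges overlapped.

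Grik3 separated striatal types in the other direction. It was at 478 ± 56.7 CPM in D2 striatal-like nuclei, from 403 to 602 CPM, and at 27.2 ± 9.65 CPM in D1 striatal-like nuclei, from 15.2 to 48.5 CPM, without overlap. Among excitatory classes it was high in L6b/subplate (653 ± 88.9 CPM) and deep-layer ExN-like nuclei (633 ± 41.5 CPM) and at 9.44 ± 4.61 CPM in upper-layer ExN-like nuclei. Grik4, a high-affinity kainate subunit, was at 433 ± 53.6 CPM in L6b/subplate ExN-like and 397 ± 42.003 CPM in oligodendrocyte lineage-like nuclei, against 49.3 ± 13.3 CPM in MGE InhN-like nuclei. Grik5, the other high-affinity subunit, was even among neuronal classes (109 CPM in upper-layer ExN-like nuclei at the lowest), with 149.8 ± 6.85 CPM in its highest class (D1 striatal-like) and 34.5 ± 13.997 CPM in its lowest (endothelial-like). Grid1, a delta receptor of synapse organization, was at 1148 ± 115 CPM in oligodendrocyte lineage-like and 1046 ± 73.3 CPM in D1 striatal-like nuclei, with overlapping ranges.

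Among metabotropic receptor genes, Grm5 and Grm7 were highest in striatal classes. Grm5 (ENSMUSG00000049583.15, chromosome 7, 87584168 to 88134907, plus strand), which couples to calcium release, ranged from 3948 to 5344 CPM in D2 striatal-like nuclei with a median of 4631 CPM. D1 striatal-like nuclei ranged from 3230 to 3827 CPM, below D2 in all 12 libraries. Astroglia/radial glia-like nuclei held 2472 ± 543 CPM, well above the 1012 CPM of microglia-like nuclei. Grm7, a presynaptic receptor, was at 1963 ± 281 CPM in D1 and 1937 ± 214 CPM in D2 striatal-like nuclei and did not differ between them beyond the spread. Astroglia/radial glia-like nuclei held 134 ± 33.1 CPM of Grm7, the lowest class.

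Grm3 encodes a receptor that lowers cAMP and is well known from astrocytes. It was highest in astroglia/radial glia-like nuclei at 2351 ± 673 CPM, from 1524 to 3528 CPM. Mural-like nuclei, the pericytes and smooth muscle of vessels, followed at 1971 ± 445 CPM in the 10 libraries with at least 10 such nuclei. This rested on 871 UMIs, and every mural-like library exceeded the endothelial-like mean of 398 ± 71.3 CPM. MGE InhN-like nuclei held 1149 ± 116 CPM of Grm3, whereas CGE InhN-like nuclei held 125 ± 31.5 CPM, the lowest class. Grm8 was highest in immature LGE/olfactory InhN-like nuclei with 1138 ± 337 CPM and lowest in D2 striatal-like nuclei with 48.5 ± 28.2 CPM. Grm2 reached 18.6 CPM and Grm4 75.5 CPM in their highest class, also immature LGE/olfactory InhN-like nuclei, where their ranges overlapped with those of the next class.

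GABA-A receptor genes divided among the classes by subunit. Gabra2 (ENSMUSG00000000560.9, chromosome 5, 70957597 to 71095849, minus strand), an alpha subunit of the immature brain, was at 698 ± 108 CPM in other InhN and 546 ± 156 CPM in Cajal-Retzius-like nuclei, higher in other InhN in 12 of 12 libraries though the ranges overlapped. Deep-layer ExN-like nuclei had 44.3 ± 16.9 CPM of Gabra2, no more than the 48.1 CPM of fibroblast-like nuclei. Gabra5 was at 162 ± 29.4 CPM in D1 striatal-like and 151 ± 22.3 CPM in L6b/subplate ExN-like nuclei. Per kb, the Gabra5 to Gabra2 ratio was 3.35 in L6b/subplate ExN-like and 1.51 in deep-layer ExN-like nuclei, and 0.173 in upper-layer ExN-like nuclei. Since Gabra2 in the first and second of these was near its background level (67.9 and 44.3 CPM), the denominator there could not be told from free RNA and these ratios are not exact. Gabra5 in deep-layer and upper-layer ExN-like nuclei was below its microglia-like level, so the numerators of 1.51 and 0.173 could not be told from free RNA. Gabra3 was led by MGE InhN-like nuclei with 278 ± 19.02 CPM, and Gabra4 did not exceed 76.3 CPM in any class. Gabra5 overlaps another receptor subunit gene on the opposite strand, and the Gabra4 and Gabrb1 genes overlap at their starts.

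Gabrb1 (ENSMUSG00000029212.11, chromosome 5, 71658113 to 72149037, plus strand), a beta subunit, was at 1656 ± 305 CPM in cholinergic-like nuclei (SD, n = 7), above astroglia/radial glia-like nuclei (1188 ± 237 CPM, n = 12) in 7 of 7 libraries. Gabrb2 was level across L6b/subplate (657 ± 109 CPM), upper-layer (649 ± 73.5 CPM) and deep-layer ExN-like nuclei (638 CPM), and at 84.5 ± 19.5 CPM in astroglia/radial glia-like nuclei. Gabrg3, the longest GABA-A member at 671 kb, ranged from 1998 to 3316 CPM in D2 striatal-like nuclei and was at 129 ± 27.1 CPM in upper-layer ExN-like nuclei. Gabrg1 was at 134 ± 33.5 CPM in other InhN, 121 ± 17.2 CPM in astroglia/radial glia-like and 111 ± 21.4 CPM in oligodendrocyte lineage-like nuclei, and these did not differ beyond their spread.

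The 2 subunits of the GABA-B receptor, which is known to need both, did not share a highest class. Gabbr1 (ENSMUSG00000024462.17, chromosome 17, 37045966 to 37075067, plus strand) was at 167 ± 24.1 CPM in astroglia/radial glia-like nuclei, from 129 to 213 CPM, and above the second class in 12 of 12 libraries. Its other classes lay close together, down to 64.7 CPM in cholinergic-like nuclei. Gabbr2 (ENSMUSG00000039809.10, chromosome 4, 46662305 to 46991873, minus strand) was at 355 ± 59.4 CPM in deep-layer ExN-like nuclei, above L6b/subplate ExN-like nuclei (247 ± 47.6 CPM) in 12 of 12 libraries with overlapping ranges. Fibroblast-like nuclei held 39.5 ± 14.7 CPM of Gabbr2 but 89.4 CPM of Gabbr1. Over all nuclei Gabbr1 was at 92.2 CPM, and endothelial-like and microglia-like nuclei held 79.1% and 77.5% of that level. Gabbr1 in neuronal classes, at 110 CPM or less, was near these levels and could not be told from free RNA.

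**Figure D3:**
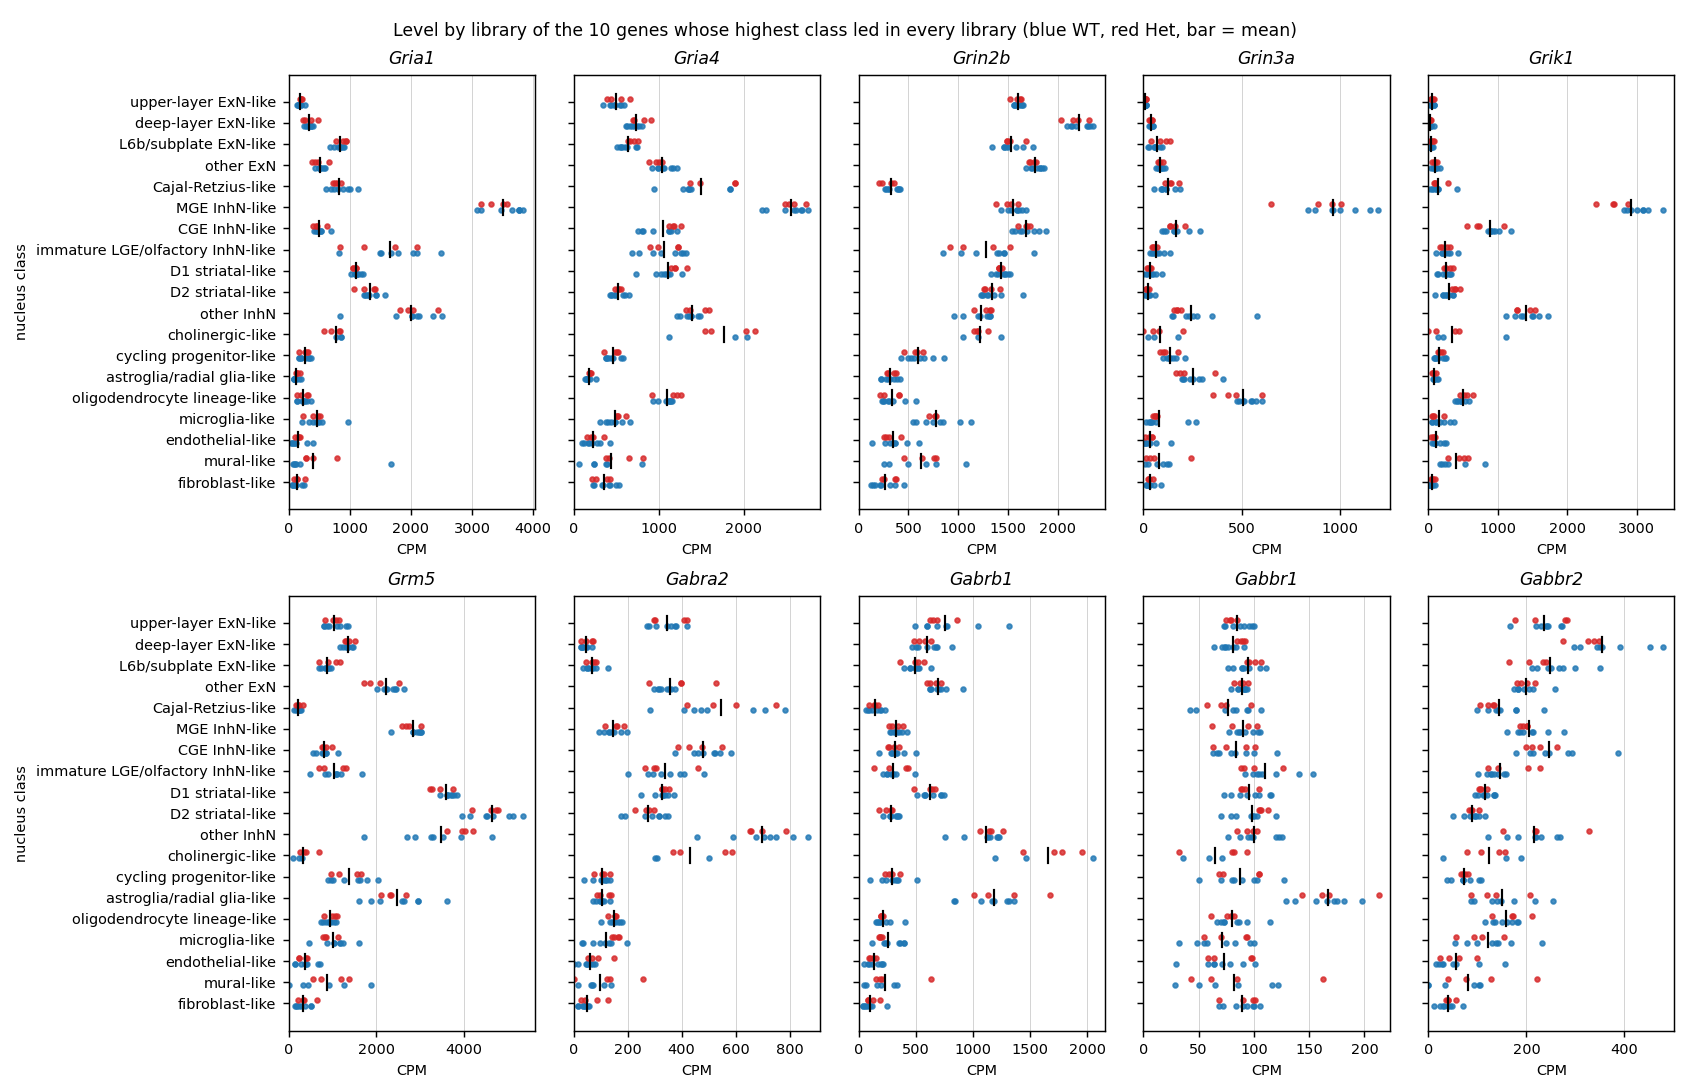
Level in CPM (horizontal axes) of the 10 receptor genes whose highest class exceeded the second in every library holding both, by nucleus class (vertical axis). Points are libraries (blue WT, red Het) and bars are means. Gria1, Gria4, Grin3a and Grik1 have their highest points in MGE InhN-like nuclei, where WT and Het points lie together against the distance to other classes.

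Whether loss of 1 functional Myt1l allele changed these genes was asked by comparing 4 Het with 8 WT libraries within each class and over pooled nuclei. No member was called in any comparison by edgeR's quasi-likelihood test, at an adjusted p under 0.05 and a log2 difference of 0.2 or more. Over all nuclei 33 members passed the filter on low counts and 0 were called, as were 0% of all 20175 genes tested. In excitatory nuclei 0 of 32 members and 0% of genes were called, and in inhibitory nuclei 0 of 33 members and 0% of genes. Across the 19 classes 0 of 484 pairs of member and class were called, against 0.0016% of all pairs of gene and class, which were 2 of 125307. Grin3b passed the filter in no comparison. By DESeq2, 0 members were called over the 3 pools and 2 pairs by class, against 0.0311% of all pairs of gene and class. Without the filter on low counts, 8 pairs were called against 0.141%, and Grin3a over inhibitory nuclei against 0.248% of genes. With 1 library left out, 1 pair was called without WT M4 (0.00313% of all pairs), 1 without Het M1 (0.0229%) and 3 without Het F1 (0.0768%). With the replicate block 1 pair was called (0.0455%), and with marked doublets kept 1 (0.00233%).

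At an unadjusted p under 0.05, 7 members passed over all nuclei (1 higher and 6 lower in Het) against 10.8% of all genes, and 6 passed in excitatory nuclei (1 higher and 5 lower) against 12.2%. In inhibitory nuclei 9 of 33 members passed, 2 higher and 7 lower, against 7.79% of all genes in either direction and 4.53% lower. In MGE InhN-like nuclei 10 of 30 members passed, 3 higher and 7 lower, against 7.37% of all genes and 4.12% lower. Over all pairs of member and class 46 of 484 passed (21 higher and 25 lower), against 6.03% of all pairs of gene and class. The median log2 difference of the members was -0.08 over all nuclei, -0.10 in excitatory and -0.06 in inhibitory nuclei, while that of all genes tested lay at 0.00 in each.

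**Figure D4:**
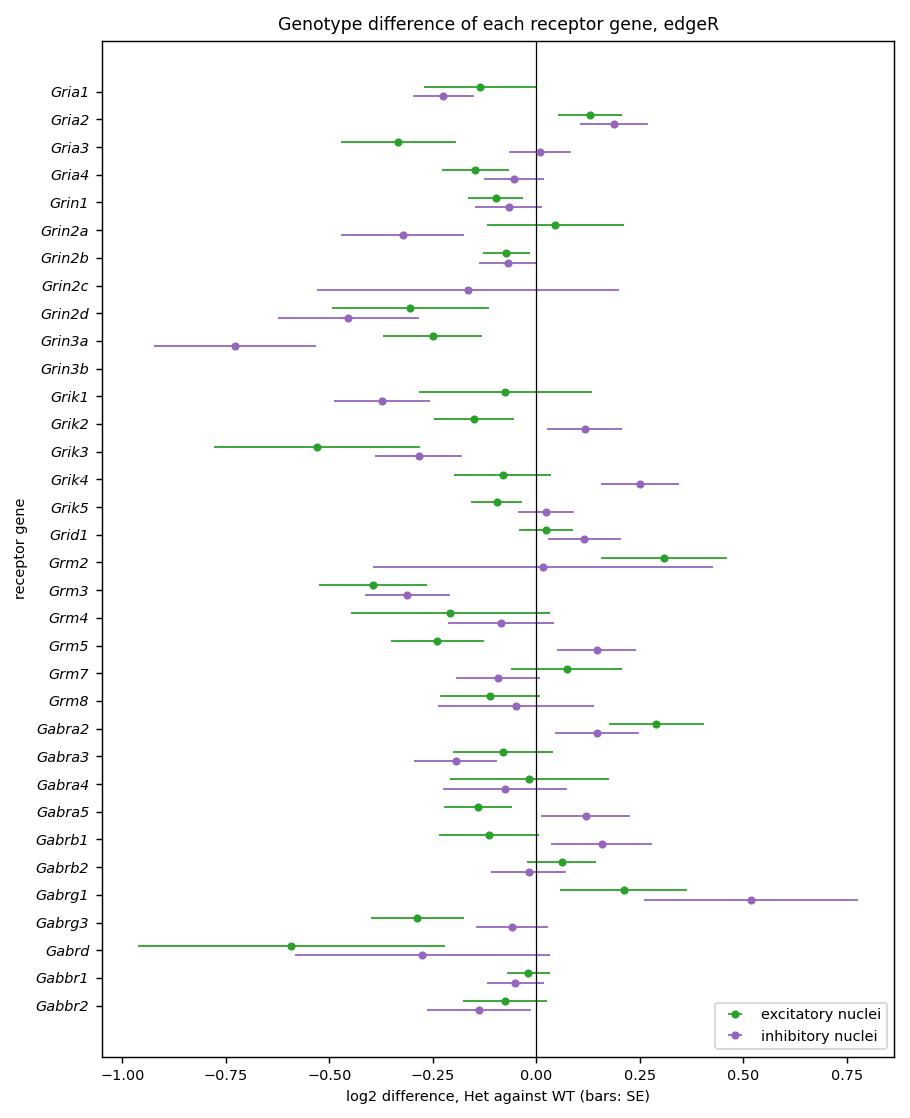
Log2 difference of Het against WT (horizontal axis, bars are SE from edgeR) for each receptor gene (vertical axis) in excitatory nuclei (green) and inhibitory nuclei (purple), from 8 WT and 4 Het libraries. Grin3a in inhibitory nuclei (-0.73) and Gabrd in excitatory nuclei, a gene of few UMIs, lie farthest to the left, and no gene was called.

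The smallest adjusted p of a member in any class was that of Grm3 in D2 striatal-like nuclei, and Grm3 also differed in the same direction in D1 striatal-like nuclei. In D1 striatal-like nuclei the WT libraries ranged from 812 to 989 CPM with a median of 888 CPM. The Het libraries lay at 708 CPM (Het M1), 719.7 CPM (Het M2), 626 CPM (Het M3) and 707 CPM (Het F1), so that every Het library was below every WT library. How many of all genes had groups without overlap was not counted, here or for the pairs described below. These pairs were picked for a small unadjusted p, which favours groups that lie apart. The log2 difference was -0.38 ± 0.08 (SE), with an adjusted p of 0.264 by edgeR. In D2 striatal-like nuclei the WT libraries ranged from 652 to 1244 CPM with a median of 1045 CPM, and the Het libraries lay at 856, 663, 681 and 721 CPM in the same order. The groups overlapped through WT M4, which held 13 D2 striatal-like nuclei against 132 to 495 in the other WT libraries. The log2 difference was -0.58 ± 0.13 (SE, adjusted p = 0.121 by edgeR).

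Most other fits did not call Grm3 in these classes. Of 21 alternatives, 3 called it in D2 and 1 in D1 striatal-like nuclei, with adjusted p from 0.00757 to 0.618 and from 0.00556 to 0.711. DESeq2 gave an adjusted p of 0.00556 in D1 striatal-like nuclei, where it called 0.0425% of genes, and of 0.0147 in D2 striatal-like nuclei, where it called 0.0769% of genes. Without WT M4, edgeR gave a log2 difference of -0.63 and an adjusted p of 0.00757 in D2 striatal-like nuclei, where 0.0277% of genes were called, and without the filter on low counts the adjusted p was 0.0498. Without Het M2 the adjusted p in D2 was 0.618, and without Het M3 that in D1 was 0.711. At an unadjusted p under 0.05, edgeR passed 4 of 29 members in D1 striatal-like nuclei against 6.06% of genes, and 5 of 28 in D2 striatal-like nuclei against 5.67% of genes. Grm3 was also lower in Het at unadjusted p over all nuclei (log2 difference -0.29), in excitatory (-0.39) and in inhibitory nuclei (-0.31), with adjusted p of 0.373, 0.288 and 0.511 by edgeR. Mean class shares differed between the genotypes as well, which was not tested. Library ranges overlapped for the shares given here, except for the MGE share. In Het F1 the upper-layer share (14.2%) was below the WT mean and the deep-layer share (18.3%) above it. The D1 and D2 share of WT M4 was 5.59%. The upper-layer share of excitatory nuclei, where Grm3 is low (250.4 CPM), averaged 20.6% in WT and 37.0% in Het, and the deep-layer share, where it is high (1107 CPM), 17.5% and 10.6%. In inhibitory nuclei the MGE share, with Grm3 at 1149 CPM, averaged 29.3% and 18.8%, whereas the D1 and D2 share, with Grm3 at 828 and 941 CPM and so also above the 687 CPM of all inhibitory nuclei, averaged 32.9% and 47.3%. The part of these shares in the result was not tested.

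The promoter of Grm3 is shown because this gene had the lowest unadjusted p of all pairs of member and class. The sequence is RefSeq's for chr5:9725303-9725602 (GRCm38.p6, minus strand), from 250 bases before to 50 bases after the start that RefSeq gives (9725352). The GENCODE gene used for positions here starts at 9725170, downstream of the whole window. The capitals mark AAGTT, the core sequence known to be bound by zinc fingers of the MYT1 family, searched on both strands (AAGTT or AACTT).

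Grm3: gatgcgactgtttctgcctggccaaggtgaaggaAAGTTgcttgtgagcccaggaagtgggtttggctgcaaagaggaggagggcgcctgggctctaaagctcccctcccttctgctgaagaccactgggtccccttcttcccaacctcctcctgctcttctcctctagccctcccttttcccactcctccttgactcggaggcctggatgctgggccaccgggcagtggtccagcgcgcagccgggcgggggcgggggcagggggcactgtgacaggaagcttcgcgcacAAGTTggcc

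The letters occurred 2 times in this window. They were in the promoters of 8 of the 24 members with an entry (Gabra3, Gabra5, Gabrb1, Gabrb2, Grin2d, Grin3b, Grm3 and Grm8), and in 39.3% of the 32851 promoters of the same length, and are thus common. Gria1, Gria3, Grin2a, Grin2b, Grin3a, Grik1, Grid1, Grm4, Grm5 and Gabrd had no entry.

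The GABA-A receptor genes among the 10 pairs with the smallest unadjusted p of stable sign were in D1 striatal-like, upper-layer ExN-like, CGE InhN-like and MGE InhN-like nuclei. Gabra3 in CGE InhN-like nuclei ranged from 94.8 to 123 CPM in WT with a median of 107 CPM, and was at 147, 127, 173 and 192 CPM in Het M1, M2, M3 and F1, all above the WT range. The log2 difference was 0.55 ± 0.13 (SE, adjusted p = 0.360 by edgeR). Gabrg3 in MGE InhN-like nuclei ranged from 1705 to 2097 CPM in WT and was at 1625, 1279, 1625 and 1858 CPM in the Het libraries, with Het F1 within the WT range. The log2 difference was -0.30 ± 0.08 (SE, adjusted p = 0.219 by edgeR), and without Het F1 it was -0.38 with an adjusted p of 0.0457, with 0.257% of genes called. Without Het M2 it was -0.21 with an adjusted p of 0.773.

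Gabrg3 in upper-layer ExN-like nuclei ranged from 95.7 to 141 CPM in WT with a median of 114 CPM, and was at 142, 149, 192 and 143 CPM in the Het libraries (log2 difference 0.44 ± 0.11, adjusted p = 0.498 by edgeR). The WT levels lay near the 117 ± 50.0 CPM of fibroblast-like and 129 ± 43.5 CPM of endothelial-like nuclei (SD, n = 12), so they could not be told from free RNA. At a clustering resolution of 2.5 this difference turned to -0.12. Gabrg1 was at very low levels, near the 6.10 CPM of fibroblast-like nuclei over all 12 libraries, from 2.00 to 8.09 CPM in WT and at 8.26, 17.9, 17.9 and 11.9 CPM in Het upper-layer ExN-like nuclei (log2 difference 1.11 ± 0.25, adjusted p = 0.332 by edgeR). Without Het M1 the adjusted p was 0.0182, with 0.0362% of genes called, whereas without Het M2 or Het M3 it was 1.000 in both cases. In D1 striatal-like nuclei Gabrg1 ranged from 0 to 16.1 CPM in WT and lay at 11.9, 24.4, 13.2 and 30.3 CPM in Het, from 233 UMIs in all (log2 difference 1.03 ± 0.29, adjusted p = 0.484 by edgeR).

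Among ionotropic glutamate receptor genes, Grik1 in D2 striatal-like nuclei ranged from 100.2 to 362 CPM in WT with a median of 254 CPM, and was at 386, 457, 388 and 336 CPM in Het, with only Het F1 inside the WT range (log2 difference 0.49 ± 0.14, adjusted p = 0.359 by edgeR). Its lowest WT value was that of WT M4. Grin2d in MGE InhN-like nuclei ranged from 34.1 to 62.4 CPM in WT and was at 23.4, 33.6, 29.6 and 27.5 CPM in Het, below the WT range in 4 of 4 libraries (log2 difference -0.56 ± 0.17, adjusted p = 0.297 by edgeR).

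Grin3a over inhibitory nuclei ranged from 268 to 684 CPM in WT with a median of 327 CPM, and was at 242, 184, 197 and 258 CPM in Het, below the WT range in 4 of 4 libraries. The log2 difference was -0.73 ± 0.20 (SE, adjusted p = 0.428 by edgeR). The make-up of the inhibitory nuclei moved with it. MGE InhN-like nuclei, the class with the highest Grin3a level, were 22.3% to 54.2% of inhibitory nuclei in WT and 12.8% to 21.5% in Het libraries, and WT M4 held both the highest share and the highest Grin3a level. Within MGE InhN-like nuclei the log2 difference of Grin3a was -0.21 (adjusted p = 0.676 by edgeR). The part of the class shares in the pooled difference was not tested.

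**Figure D5:**
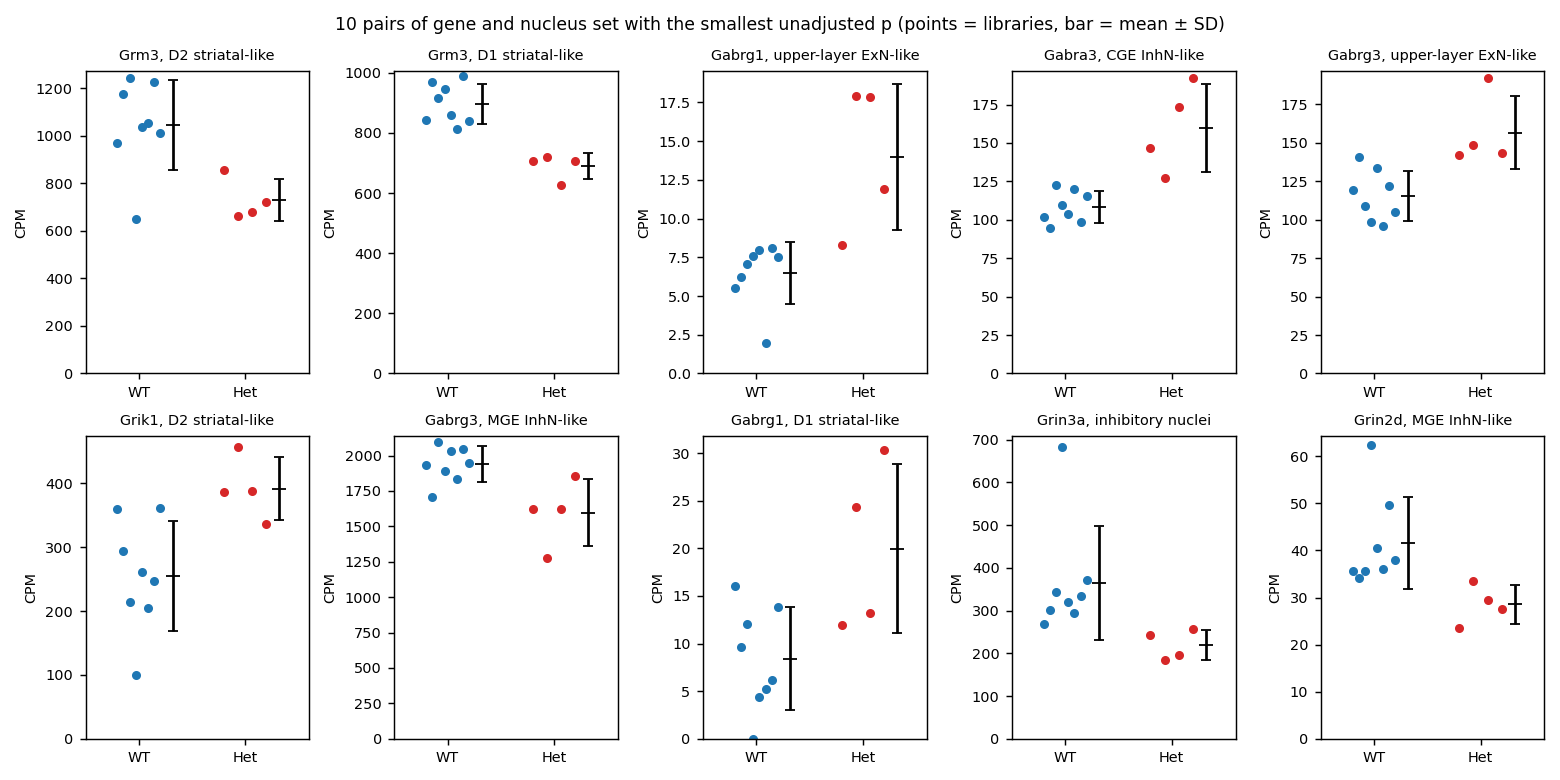
Level in CPM (vertical axes) by genotype for the 10 pairs of receptor gene and nucleus set with the smallest unadjusted p that kept their direction with each library left out. Points are libraries (8 WT, 4 Het) and bars are mean ± SD. All 4 Het libraries of Grm3 in D1 striatal-like nuclei (626 to 719.7 CPM) lie below all 8 WT libraries (812 to 989 CPM), and no pair was called. The choice by small p favours groups that lie apart, and the share of all genes without overlap was not counted.

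In excitatory nuclei the calls depended on Het F1. Without this library, 6 members were called by edgeR, with 2.62% of all genes called. They were Gria1 (log2 difference -0.37), Gria3 (-0.54), Grik3 (-0.92), Grm5 (-0.40) and Gabrg3 (-0.45), all lower, and Gabra2 (0.44), which was higher, with adjusted p between 0.00738 and 0.0470. Among male libraries alone, Grm5, Gabra2 and Gabrg3 were called, with 1.19% of all genes called. There Gria1 (-0.33), Gria3 (-0.50) and Grik3 (-0.81) were lower without being called (adjusted p of 0.121, 0.0874 and 0.101 by edgeR). Every fit without Het F1 sets only male Het libraries against WT libraries of both sexes, so genotype and sex are partly confounded in it. With all 12 libraries the log2 differences of the 6 members called without Het F1 were between -0.53 and 0.29.

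Upper-layer ExN-like nuclei were 43.6%, 48.4% and 41.9% of the excitatory nuclei in Het M1, M2 and M3, but 14.2% in Het F1 and 10.7% to 26.1% in WT libraries. The members that were lower in the pool include those with low levels in upper-layer ExN-like nuclei, such as Grik3 (9.44 CPM there and 633 CPM in deep-layer ExN-like nuclei) and Gria3 (91.1 and 540 CPM). Without Het F1, the log2 difference of Grik3 was 0.34 within upper-layer, -0.07 within deep-layer and 0.02 within L6b/subplate ExN-like nuclei, and that of Gria3 was 0.18, 0.06 and 0.26. In upper-layer ExN-like nuclei both genes were below their microglia-like levels and could not be told from free RNA. The called members Gabra2 and Gabrg3 had a difference of the pooled size in a layer class without being called there. Gabra2 was at 0.72 within deep-layer ExN-like nuclei, where its level (44.3 CPM) could not be told from free RNA (48.1 CPM in fibroblast-like nuclei), 0.15 within upper-layer and -0.06 within L6b/subplate ExN-like nuclei. Gabrg3 was at -0.57 within L6b/subplate and -0.10 within deep-layer but at 0.47 within upper-layer ExN-like nuclei. In each of these layer classes Gabrg3 was below its microglia-like level and could not be told from free RNA. Gria1 (-0.20 to 0.19) and Grm5 (-0.12 to 0.06) stayed closer to 0 in the 3 layer classes. Gria1 in upper-layer and deep-layer ExN-like nuclei was below its microglia-like level and could not be told from free RNA. In other ExN nuclei the differences of Grik3 (-0.60, adjusted p = 0.0496 by edgeR) and Gabra2 (0.40, adjusted p = 0.0496 by edgeR) were called without Het F1, as were 0.341% of genes. Gria1 (-0.26), Gria3 (-0.33), Grm5 (-0.30) and Gabrg3 (-0.31) were also lower there, without being called (adjusted p from 0.113 to 0.283 by edgeR). Other ExN held 27710 of the 50070 excitatory nuclei. How far class shares account for the pooled values was not tested.

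The genotype difference was then compared between the neuron kinds. In a limma test of the within-library difference between excitatory and inhibitory nuclei, 0 of 32 members were called, and 3 passed an unadjusted p under 0.05, against 7.61% of all genes. By limma, these were Grin2a (0.38 ± 0.15, SE, adjusted p = 0.619), Grm5 (-0.41 ± 0.17, adjusted p = 0.629) and Grik4 (-0.36 ± 0.16, adjusted p = 0.648), where a positive value stands for a higher Het level in excitatory relative to inhibitory nuclei, in log2 units.

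Genes that work with these receptors were described from 3 lists. In the list of 14 auxiliary subunits of AMPA and kainate receptors, edgeR with the filter on low counts called 0 in any pool with all 12 libraries, DESeq2 also called 0, and at an unadjusted p under 0.05 6 were lower over all nuclei, 5 in excitatory and 3 in inhibitory nuclei, and 0 were higher. In the list of 14 genes of the excitatory postsynaptic scaffold, edgeR called 0 and DESeq2 called 1 (Dlgap1 over all nuclei), and 5 were lower and 0 higher over all nuclei at unadjusted p, 6 lower and 2 higher in excitatory nuclei, and 4 lower and 0 higher in inhibitory nuclei. In the list of 6 genes of the inhibitory scaffold and the GABA-B partners, edgeR and DESeq2 called 0 in the pools, and 1 was lower in each pool and 1 higher in excitatory nuclei. The lowest unadjusted p over all nuclei belonged to Dlgap1, a scaffold gene at the excitatory synapse (log2 difference -0.28 ± 0.07, SE, adjusted p = 0.317 by edgeR). DESeq2 called it with an adjusted p of 0.0391, with 0.312% of all genes called in that fit. Cacng2, the auxiliary AMPA receptor subunit stargazin, had the lowest in inhibitory nuclei (-0.49 ± 0.13, SE, adjusted p = 0.428 by edgeR). Without the filter on low counts it was called (-0.47, adjusted p = 0.0173 by edgeR), with 0.248% of genes called. In excitatory nuclei, Neto1 was called by edgeR without Het F1 (-0.62, adjusted p = 0.0323) and, with Cacng3, among male libraries (-0.58 and -0.81, adjusted p of 0.0474 and 0.0189), in fits that called 2.62% and 1.19% of genes. By class, edgeR with the filter, all 12 libraries and no replicate block called 0 partner genes. Shisa9 in MGE InhN-like nuclei was called under 3 alternatives (no filter, male libraries, without Het F1), with log2 differences of -0.48, -0.69 and -0.67, in fits that called 0.24%, 0.106% and 0.257% of all genes in that class. Without the filter, where 0.141% of all pairs of gene and class were called, Shisa6 was called in Cajal-Retzius-like (-0.73), astroglia/radial glia-like (0.61) and other InhN nuclei (0.58), Dlg2 in astroglia/radial glia-like (0.44), Dlg1 (0.44) and Gsg1l (1.21) in upper-layer ExN-like and Kctd8 in microglia-like nuclei (-1.82). With the replicate block, where 0.0455% of all pairs were called, Shisa6 was called in other InhN (0.83) and Neto1 in Cajal-Retzius-like nuclei (1.80). Of all genes, 10.8%, 12.2% and 7.79% passed the unadjusted threshold of 0.05 in all, excitatory and inhibitory nuclei.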

How the data were processed

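The libraries were prepared by combinatorial barcoding of nuclei (ScaleBio), with all animals of this age on 1 plate. The authors mapped reads to mm10 and made the matrices with ScaleRna, whose cell caller set the barcodes. The deposited values were expected counts of UMIs per gene and nucleus, with no normalization, and 6.58% to 6.88% of a library's entries were divided, not whole. The sources used here do not give how shared UMIs were divided or whether counting used the strand, and overlapping genes cannot be told apart fully.

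From 126684 barcodes, 100035 passed the study's stated filter (between 800 and 6000 UMIs and between 300 and 3000 genes, a mitochondrial share of at most 1%, log ratio of genes to UMIs of at least 0.9). Simulated doublets were used to mark 5% of barcodes per library, and 3656 marked nuclei were removed, leaving 96379. Nuclei were clustered (Leiden, leidenalg 0.10.2, resolution 1.5) without the receptor genes, and 42 of 55 clusters were named, holding 95.95% of nuclei. Numeric thresholds for naming were chosen with the clusters in view, and class names can differ from the study's. Counts were summed per library and class, rounded, and tested with edgeR 4.0.16 (quasi-likelihood, TMM, R 4.3.3), with Benjamini-Hochberg adjustment over all genes of a fit. A library entered with at least 10 nuclei, and a class with at least 3 libraries per genotype. In mural-like nuclei 6 WT and 4 Het libraries were used, and in cholinergic-like nuclei 3 WT and 4 Het libraries. The difference between neuron kinds was tested with limma 3.58.1 on log2 CPM, and DESeq2 1.42.0 was an alternative, beside others in normalization, filter, sex, doublets, resolution and replicate block. The scripts were tested on simulated data. Each library was 1 animal, so p-values measure the spread between animals, and the precision is limited by 4 Het libraries. The paper states that the P1 animals came from 4 litters. The litter of each animal was not known here and was not modelled, so the animals may not be fully independent. SDs and counts of UMIs do not cover free RNA.

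The members, picked by symbol, and the lists were chosen with earlier results of these data known. The genotype pairs described in full are the 10 with the smallest unadjusted p that kept their sign with each library left out. For the classes, they are members whose highest class exceeded the second in every library, or the 2 of a family with the largest ratio of highest to median class. Gene positions are from GENCODE M21 (GRCm38), where 54587 of 55335 identifiers matched. Of the 34 members, 24 overlap another listed gene.

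The deviations of same-numbered libraries had correlations over genes of -0.13, 0.08 and 0.04 for the male numbers and 0.22 for the female number, so they deviated together in the female pair but not in every pair, and replicate numbers were not taken as pairs.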

Additional observations from a re-analysis of the deposited data

Results flagged for a closer look

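In 88 groups of libraries examined, 9 held a library apart from the others of its group by Dixon's test, which chance does in about 1 of 20 groups. Over all nuclei, Grin2a was at 413 CPM in Het M1 against 311 to 317 CPM in the other Het libraries, and Grm4 at 12.5 CPM in Het M3 against 16.9 to 17.6 CPM. Grin2d was at 23.0 CPM in WT M4 against 14.8 to 18.5 CPM in the other WT libraries, and Grm2 at 11.3 CPM in WT F3 against 5.20 to 7.19 CPM. In D2 striatal-like nuclei, Grm3 was at 652 CPM in WT M4 against 969 to 1244 CPM. In D1 striatal-like nuclei, Grm3 was at 626 CPM in Het M3 against 707 to 719.7 CPM. In upper-layer ExN-like nuclei, Gabrg1 was at 2.00 CPM in WT F1 against 5.55 to 8.09 CPM, and Gabrg3 at 192 CPM in Het M3 against 142 to 149 CPM. Over inhibitory nuclei, Grin3a was at 684 CPM in WT M4 against 268 to 372 CPM.

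In 4 comparisons of classes, every Het library lay on one side of the WT mean in 1 class and on the other side in the other class. How many comparisons of classes were looked at is not given here. The log2 difference of Gabrg3 was 0.44 in upper-layer ExN-like nuclei, where its WT level could not be told from free RNA, against -0.41 in L6b/subplate ExN-like and -0.30 in MGE InhN-like nuclei. In L6b/subplate ExN-like nuclei Gabrg3 was also below its microglia-like level. The log2 difference of Grik1 was 0.49 in D2 striatal-like nuclei against -0.21 in MGE InhN-like and -0.82 in endothelial-like nuclei. Endothelial-like nuclei were among the classes used to set the background, so Grik1 there could not be told from free RNA. The difference between the classes was not tested.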

How the results depend on the processing

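With all nuclei pooled, 0 members were called under every alternative run, and 0 for the difference between neuron kinds. In excitatory nuclei 3 were called among male libraries, and between 0 and 6 with 1 library left out (6 without Het F1). In inhibitory nuclei 1 was called without a filter on low counts (Grin3a, log2 difference -0.70). Over pairs of member and class, 2 were called by DESeq2 (Grm3 in D1 and D2 striatal-like nuclei), 8 without a filter, 1 with marked doublets kept (Grik2 in mural-like nuclei, 1.19), and between 0 and 3 with 1 library left out (1 without WT M4, 1 without Het M1, 3 without Het F1). With the replicate block, 1 pair was called (Grm8 in Cajal-Retzius-like nuclei, lower in Het) and 0 members in the pooled sets. Whether the replicate numbers pair these animals is not known, and they were not taken as pairs in the main fits. The difference of Gabrg3 in upper-layer ExN-like nuclei was -0.12 at a clustering resolution of 2.5, against 0.44. The cause was not tested in any of these. For the 10 pairs described in full, 198 values under alternatives kept their direction and side of the threshold, 10 became called and 1 reversed, and DESeq2 gave no adjusted p for Gabrg1 in D1 striatal-like and Grin2d in MGE InhN-like nuclei. These pairs were picked for keeping their direction with each library left out. The direction could therefore not reverse in those alternatives, which were many of the values counted. Of the class order, 9 members had a highest class above the second in every library with doublets kept or at a resolution of 0.8, and 29 of 34 members had the same highest class at a resolution of 0.8 and likewise at 2.5. The count was between 10 and 12 with 1 library left out. Levels under 10 CPM, and classes such as mural-like and cholinergic-like nuclei, rest on few UMIs.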
